A study of Homo sapiens with 6 samples.

Results

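The high mobility group (HMG) chromatin proteins were described here through every probe set annotated to HMGN1, HMGN2, HMGN3, HMGN4, HMGN5, HMGB1, HMGB2, HMGB3 or HMGA1 on the arrays. A probe set is a group of probes summarised into 1 value. These 9 genes had 15 such probe sets among 32319 in the table, in which 18404 genes have a probe set of their own. Of the 32319, 20546 carry a gene annotation. Of the 15, 13 list 1 gene symbol and cover 8 of the 9 genes, and 2 list several symbols. One of these 2 lists CTCFL, SP100 and HMGB1 and the other ERFE and HMGA1, so neither is given to a single gene, and no probe set lists HMGB1 alone. Several probe sets of a gene are numbered from the brightest down by their mean over the 6 arrays. The family was chosen by a measured value, the strong fall of HMGN2 intensity with SALL4 knockdown in this same comparison. Its values are therefore given as a description. Whether a probe set passed the fit described below is stated, but no p-value of a member is printed. Nothing is supported with these values or passes.

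HMG proteins are small, abundant non-histone proteins of chromatin that do not read a fixed DNA sequence as transcription factors do. HMGN proteins bind the nucleosome itself and compete with linker histone H1, which loosens compacted chromatin. HMGB proteins carry HMG boxes that bend DNA, and HMGA1 grips the minor groove of AT-rich DNA with its AT hooks. HMGA1 is known as a protein of fetal tissues and tumours, liver cancer among them, and HMGB1 acts as an alarm signal once it leaves the cell.

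The series has 6 arrays, 3 of SNU-398 cultures given an shRNA against SALL4 and 3 of SNU-398 cultures given a scrambled control shRNA. SNU-398 is an established human hepatocellular carcinoma line, grown for both groups in RPMI medium with fetal bovine serum, and SALL4 is a zinc finger transcription factor of stem cells and fetal liver. By their labels the 3 arrays of a group are biological replicates, and the labels set apart no second SALL4 hairpin and describe no rescue, so other effects of a hairpin and those of lower SALL4 cannot be told apart. How the hairpins were delivered and for how long was not stated in the labels.

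The SALL4 probe set had intensities of 121, 119 and 117 with the SALL4 shRNA, against 283, 264 and 335 with the scrambled shRNA. SALL4 fell by 1.30 ± 0.18 on the log2 scale (SE). The adjusted p from limma was 0.0204, with an exact two-sided permutation p of 0.1, the smallest that 3 against 3 arrays can give. The call was lost without SALL4 shRNA replicate 2 or without any 1 scrambled array, where the limma adjusted p was 0.0569 to 0.0641 and the log2 change -1.38 to -1.20. Array median intensities ran from 47.85 to 50.4 in knockdown arrays and from 50.35 to 51.69 in scrambled arrays. Of 9 hepatocyte and fetal liver markers, ALB and AFP were near the floor of 10 in both groups (12.1 and 13.5 in knockdown arrays, 11.2 and 15.0 in scrambled arrays), while the fetal proteoglycan GPC3 was at 144 and 155. Each marker is given by its brightest probe set. KRT8 averaged 56.4 in knockdown and 36.7 in scrambled arrays, with groups that do not overlap (log2 change 0.64 ± 0.30, SE). In the same order APOA1 was at 60.0 and 71.8, APOA2 at 37.7 and 32.6, and TTR at 28.2 and 32.2. SERPINA1 was at 33.3 and 34.3, and KRT18 at 101.7 and 99.8. The groups of all but KRT8 overlap, and none of the 6 in the fit passed. The summed intensity of the 9 markers was 438.5 to 534.1 in knockdown arrays and 457.1 to 511.1 in scrambled arrays. Of the markers of other cells, the blood markers PTPRC and LYZ were at the floor on each array. The sum of 4 measured blood markers was 63.4 to 72 in knockdown and 56.8 to 64.6 in scrambled arrays, that of 4 endothelial markers 80.4 to 106 in knockdown and 84.9 to 92.6 in scrambled arrays, and that of 4 cholangiocyte markers 1068.9 to 1253.9 in knockdown and 1088.5 to 1327.9 in scrambled arrays. Most of the cholangiocyte sum was EPCAM by the brightest of its probe sets, at 894 ± 115 in knockdown and 962.6 ± 152 in scrambled arrays (SD, n = 3 each). KRT7 averaged 45.7 in knockdown and 59.2 in scrambled arrays, KRT19 56.7 and 54.3, and SOX9 138.5 and 110.2. The sum of 5 fibroblast markers was 932.7 to 1326.5 in knockdown arrays and 1242.8 to 1400.4 in scrambled arrays, and DCN was the 1 of them that passed (83.4 ± 21.1 and 195 ± 17.2, SD, n = 3 each; limma adjusted p 0.0331). None of the other 4 passed. COL3A1 averaged 234.5 ± 6.99 in knockdown arrays and 347.9 ± 75.4 in scrambled arrays (log2 change -0.54 ± 0.20, SE), and COL1A2 77.1 ± 13.4 in knockdown and 54.3 ± 6.22 in scrambled arrays (0.50 ± 0.20), with groups that do not overlap for either gene. The groups of COL1A1 (log2 change 0.37 ± 0.20) and LUM (-0.08 ± 0.22) overlap. LUM, the largest part of the fibroblast sum, averaged 648.6 ± 174 in knockdown and 670.5 ± 24.1 in scrambled arrays (SD, n = 3 each). The part of these markers in the HMG values was not tested.

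HMGN2 was the member with the largest difference, and each of its 3 probe sets had a lower mean with the SALL4 shRNA. Its brightest probe set gave 581, 527 and 596 on the SALL4 shRNA arrays, against 1721, 1479 and 1590 on the scrambled arrays. The 3 knockdown values lie close together and far below each scrambled value. The log2 change was -1.49 ± 0.17 (SE; 95% interval -1.88 to -1.11), which leaves 35.6% of the scrambled intensity. It was the 1 of 15 HMG probe sets past the threshold of the fit, a limma adjusted p under 0.05, where 1.17% of all 14817 probe sets fitted were called, 0.796% as lower and 0.378% as higher. Since HMGN2 was chosen for this value, nothing is read from that count or from the pass, here or with arrays left out. Without scrambled replicate 1 or 2 the probe set no longer passed, at log2 changes of -1.44 and -1.54. It passed without any other 1 array. In whole cultures, fewer cells with the transcript and less of it per cell cannot be told apart.

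The other HMGN2 probe sets were lower by smaller amounts and neither passed. The second gave 407, 541 and 462 with the SALL4 shRNA, against 1065, 764 and 687 with the scrambled shRNA, a log2 change of -0.82 ± 0.22 (SE). Its groups do not overlap, although scrambled replicate 1 stands well above the other scrambled arrays. The third gave 382, 180 and 315 with the SALL4 shRNA, against 398, 684 and 328 with the scrambled shRNA, a log2 change of -0.68 ± 0.33. Its groups overlap, since the knockdown replicate 1 exceeds scrambled replicate 3, with knockdown replicate 2 the lowest value and scrambled replicate 2 the highest. Without either of these arrays the change was -0.37 or -0.38, and without any 1 array it ranged from -0.91 to -0.37. The brightest probe set is annotated with 2 transcript accessions and each of the other 2 with 14. RefSeq names 48 numbered pseudogenes of HMGN2. Such copies can be near-identical and share signal with probes of the parent gene, and which of these probe sets they touch was not tested.

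HMGN3 and HMGN5 were lower with the SALL4 shRNA by about as much as the dimmer HMGN2 probe sets, and neither passed. HMGN3, first found as a partner of the thyroid hormone receptor, gave 324, 237 and 453 with the SALL4 shRNA, against 505, 491 and 644 with the scrambled shRNA. The groups do not overlap, but the highest knockdown array comes near the lowest scrambled ones, and the log2 change was -0.73 ± 0.25 (SE; 95% interval -1.28 to -0.19). HMGN5, which has a long acidic tail and binds nucleosomes in open chromatin, gave a dim signal. Its values were 46.4, 77.2 and 40.7 with the SALL4 shRNA, against 80.8, 71 and 89.3 with the scrambled shRNA, a log2 change of -0.60 ± 0.25. SALL4 shRNA replicate 2 lies within the scrambled range and the other 2 below it. HMGN3 ranged from -0.97 to -0.38 and HMGN5 from -0.88 to -0.42 over the alternatives tried.

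HMGN1 and HMGN4 showed no difference beyond the spread of the arrays. HMGN1, the closest relative of HMGN2 among the long-known nucleosome binders, gave 1197, 886 and 1224 with the SALL4 shRNA, against 982, 932 and 1380 with the scrambled shRNA by its brighter probe set. The log2 change was 0.01 ± 0.22 (SE), with a 95% interval of -0.47 to 0.50. For this probe set, the change of the brightest HMGN2 probe set lies outside the interval. The family was chosen for that HMGN2 change, so nothing is read from this. RefSeq names 38 numbered pseudogenes of HMGN1, and their share in the signal of its probe sets was not tested. The dimmer HMGN1 probe set was at 264 ± 53.9 and 288 ± 85.3 (SD, n = 3 each), so it differed by -0.10 ± 0.24 in log2 units. HMGN4, an intronless gene that arose from an HMGN2 transcript copied back into the genome, was at 365 ± 105 and 376 ± 61, differing by -0.07 ± 0.24 in log2 units with an interval of -0.60 to 0.45. Over the 8 HMGN probe sets with 1 symbol, the change was below 0 in 7 and above 0 in 1. Of all genes in the fit, by the brightest probe set of each, 47.7% lay below 0. The 7 include the dimmer HMGN1 probe set and HMGN4, which lay near 0 and turned sign under some alternatives. The median over the 8 was -0.64 beside 0.02 over all probe sets of the fit. The 3 HMGN2 probe sets are among the 8, so this count and this median partly restate the choice of the family.

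**Figure D1:**
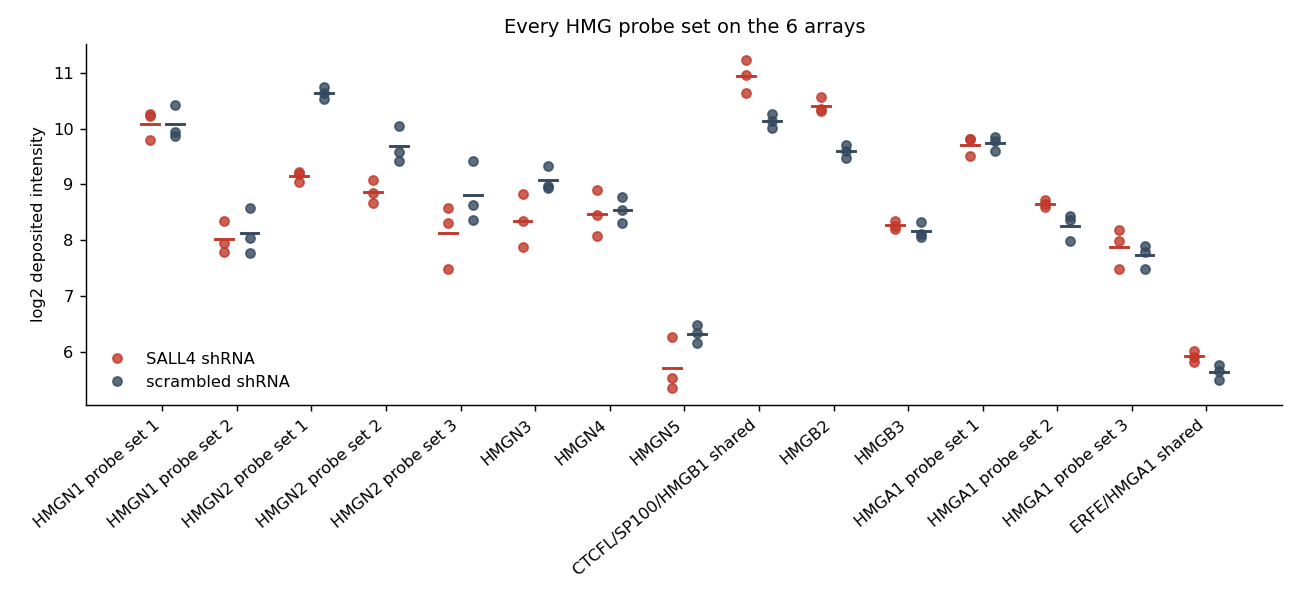
Log2 of the deposited intensity of each of the 15 HMG probe sets on the 6 arrays, with the SALL4 shRNA arrays in red left of the scrambled arrays in dark blue. Points are single arrays and short bars are group means; the widest gap is that of HMGN2 probe set 1 (568 ± 36.2 and 1597 ± 121, SD, n = 3 each).

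The promoters of HMGN2, HMGN3 and HMGN1 are printed because HMGN2 (in probe sets 1 and 2, not 3) and HMGN3 are the HMGN genes with non-overlapping groups, while the groups of HMGN1 overlap. RefSeq sequences of GRCh38.p14 were found for 8 of the 9 genes, as 12 windows of 300 bases, 250 before and 50 after the start of transcription. The HMGN2 window is chr1:26472190-26472489 on the plus strand, that of HMGN3 chr6:79234633-79234932 on the minus strand and that of HMGN1 chr21:39349039-39349338 on the minus strand, each written 5′ to 3′. Capitals mark 4 short motifs searched on both strands. They are the CCAAT box, written as its name says, and the GC box, searched as GGGCGG. The others are the TATA box, searched as TATAAA, and an AT-rich core of the kind that SALL4's last zinc fingers are known to bind, searched as ATATT. No 2 of the marked motifs overlap in these 3 windows.
HMGN2 promoter: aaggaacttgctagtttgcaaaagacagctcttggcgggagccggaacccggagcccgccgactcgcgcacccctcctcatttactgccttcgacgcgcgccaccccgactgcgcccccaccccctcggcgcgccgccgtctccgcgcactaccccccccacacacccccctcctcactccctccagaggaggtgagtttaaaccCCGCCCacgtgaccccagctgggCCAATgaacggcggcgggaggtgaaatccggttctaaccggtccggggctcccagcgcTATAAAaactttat
HMGN3 promoter: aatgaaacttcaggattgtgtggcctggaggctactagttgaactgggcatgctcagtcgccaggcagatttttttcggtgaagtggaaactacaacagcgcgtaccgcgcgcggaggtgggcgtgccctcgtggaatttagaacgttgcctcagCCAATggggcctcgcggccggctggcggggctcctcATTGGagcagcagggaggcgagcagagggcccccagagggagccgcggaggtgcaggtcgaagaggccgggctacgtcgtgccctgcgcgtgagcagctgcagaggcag
HMGN1 promoter: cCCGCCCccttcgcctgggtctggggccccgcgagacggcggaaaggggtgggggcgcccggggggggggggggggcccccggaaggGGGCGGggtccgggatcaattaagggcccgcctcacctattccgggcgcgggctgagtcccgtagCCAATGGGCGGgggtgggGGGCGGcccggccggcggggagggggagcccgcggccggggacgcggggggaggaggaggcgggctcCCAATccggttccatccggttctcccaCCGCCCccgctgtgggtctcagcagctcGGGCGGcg

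The HMGN2 window holds 1 CCAAT box starting 22 bases before the start of transcription, 1 GC box starting 45 bases before it and 1 TATA box 37 bases into the transcript. The HMGN3 window holds 2 CCAAT boxes and none of the other motifs, and the HMGN1 window holds 2 CCAAT boxes and 6 GC boxes. Of 35116 promoter windows of this length in the table, 34.6% hold a CCAAT box, 45.0% a GC box, 11.5% a TATA box and 23.0% the AT-rich core. The core is in none of the 3 windows, and among the 12 windows of the family it is in 1, of HMGB3. The HMGN2 window is 65.3% G and C, that of HMGN3 63.3% and that of HMGN1 79.3%. These matches describe letters within the windows and say nothing of what binds there.

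HMGB2 and the probe set shared with HMGB1 had higher values with the SALL4 shRNA, and HMGB3 did not differ beyond the spread of the arrays. HMGB2, which bends DNA and is most abundant in dividing and germ cells, gave 1281, 1301 and 1526 with the SALL4 shRNA, against 836, 781 and 708 with the scrambled shRNA. Each knockdown array lies above each scrambled array, and the log2 change was 0.82 ± 0.18 (SE; 95% interval 0.42 to 1.22), or 1.76-fold higher. HMGB2 did not pass the fit of all annotated probe sets. It passed in 3 of the 16 alternatives: a filter at a mean log2 of 6 in place of 5, a fit of 1 probe set per gene, and limma with trend and robust settings. The probe set shared by CTCFL, SP100 and HMGB1 behaved much like HMGB2 on these arrays. It gave 2004, 1595 and 2394 with the SALL4 shRNA, against 1027, 1228 and 1134 with the scrambled shRNA, a log2 change of 0.81 ± 0.20. Again no knockdown array falls in the scrambled range, and the probe set did not pass. Which of the 3 transcripts gives this signal was not tested, and RefSeq names 50 numbered pseudogenes of HMGB1. HMGB3, an HMGB protein of embryos and blood stem cells, gave 307, 294 and 323 with the SALL4 shRNA, against 268, 276 and 319 with the scrambled shRNA. The groups overlap, and the log2 change was 0.10 ± 0.17 with an interval of -0.28 to 0.49. For HMGB3, RefSeq names 32 numbered pseudogenes, and their share in this signal was not tested.

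**Figure D2:**
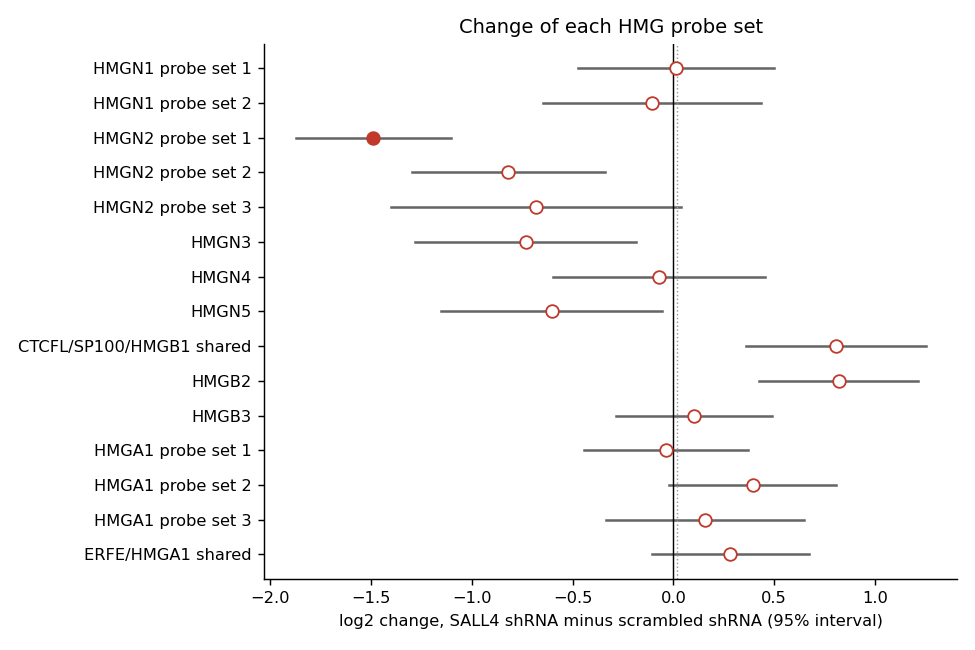
Log2 change (SALL4 shRNA minus scrambled shRNA) of each HMG probe set with its 95% limma interval; the filled point passed the fit, open points did not, and the dotted line is the median of all 14817 probe sets (0.02). HMGN2, HMGN3 and HMGN5 lie left of 0, HMGB2 and the probe set shared with HMGB1 right of it.

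HMGA1, the AT-hook protein, was measured by 3 probe sets of its own, and none passed. The brightest was at 842 ± 99.5 and 861 ± 77.8 (SD, n = 3 each). Its log2 change was -0.04 ± 0.18 (SE; 95% interval -0.44 to 0.37). The second gave 386, 421 and 403 with the SALL4 shRNA, against 344, 254 and 331 with the scrambled shRNA. Its groups do not overlap, with a log2 change of 0.39 ± 0.19, which was 0.26 without scrambled replicate 2. The third was at 240 ± 55.6 and 213 ± 30.5, a log2 change of 0.15 ± 0.22 that ranged, without any 1 array, from 0.008 without SALL4 shRNA replicate 2 to 0.35 without SALL4 shRNA replicate 1. The probe set shared by ERFE and HMGA1 was dim, at 60.6 ± 4.27 and 49.9 ± 4.54, a log2 change of 0.28 ± 0.18. The first and second probe sets are each annotated with 1 HMGA1 transcript and the third with 10. Which transcript forms each reads was not tested. For HMGA1, RefSeq names 8 numbered pseudogenes, and their share in these signals was not tested.

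Among the 15 HMG probe sets the groups do not overlap in 7, of which 3 are lower (HMGN2 probe sets 1 and 2 and HMGN3) and 4 higher (HMGB2, the second HMGA1 probe set and both shared ones). Non-overlapping groups occurred in 22.1% of the 14817 probe sets of the fit, 10.9% lower and 11.2% higher. Since the choice of the family used this comparison, nothing is read from the count. Each of the 15 probe sets passed the filter on dim signal, which used the mean over all 6 arrays. The spread between scrambled arrays differed between probe sets of 1 gene: the coefficient of variation was 7.56%, 23.8% and 40.1% for the HMGN2 probe sets 1 to 3.

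**Figure D3:**
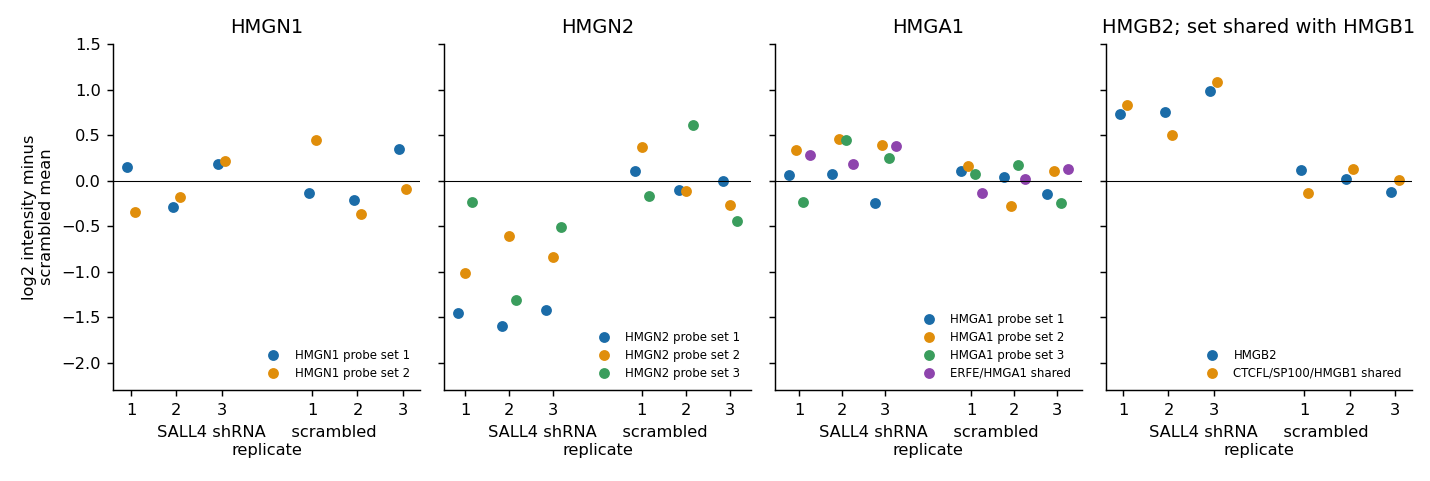
Log2 intensity minus the scrambled mean for the probe sets of HMGN1, HMGN2 and HMGA1 and for HMGB2 and the probe set shared with HMGB1; points are single arrays, SALL4 shRNA left and scrambled shRNA right. HMGN2 probe set 1 stays apart on all arrays, while HMGN2 probe set 3 overlaps between the groups.

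Pseudogenes of the family had 2 probe sets of their own. HMGN2P46 was at 29.3 ± 0.378 and 25.9 ± 3.54 (SD, n = 3 each), below the filter, and did not share the direction of the HMGN2 probe sets (log2 change 0.18). HMGB3P1 was at 42.9 ± 12.1 and 43.8 ± 8.65, and differed by -0.05 ± 0.25 in log2 units (SE). Both signals are within a few multiples of the floor, so shared signal with the parent genes cannot be read from them.

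The profiles most like that of the brightest HMGN2 probe set were those of SPA17, CD164 and RMDN2. Likeness was the root mean square difference of log2 values, centred on the scrambled mean, over the 6 arrays and 13795 candidate probe sets. The difference was 0.15 for SPA17, a sperm-tail protein gene, 0.15 for CD164, a membrane sialomucin gene, and 0.18 for RMDN2, a regulator of microtubule dynamics. SPA17 was at 99 ± 18.3 with the SALL4 shRNA, against 265 ± 36.1 with the scrambled shRNA (SD, n = 3 each). CD164 was at 441 ± 66.6, against 1139 ± 96.5, and RMDN2 to 46.5 ± 8.67, against 115.6 ± 11.1. All 3 were picked for this likeness, so their values are a description with no test.

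Genes that work beside HMG proteins were described with the brightest probe set of each gene. Of all 13325 genes so taken from the fit, 16.1% had an unadjusted p under 0.05 and 47.7% a change below 0, and the counts of each list below stand beside those shares. Of 20 other HMG family and HMG-box chromatin genes listed, 16 were in the fit, and limma called 0 of them, with 4 at an unadjusted p under 0.05. Of these 16, 12 lay below 0 and 4 above it, and the median change was -0.15, beside 0.02 over all these genes. NSD2, a histone H3 methyltransferase with an HMG box, averaged 132 ± 23 in knockdown arrays and 240 ± 8.54 in scrambled arrays (SD, n = 3 each). Its log2 change was -0.88 ± 0.19 (SE). TOX, an HMG-box factor of T cell development, was at 234 ± 9.63 and 375 ± 94.7, a log2 change of -0.65 ± 0.21.

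Linker histones compete with HMGN proteins for nucleosomes. Of 9 linker histone genes in the fit limma called 0, with 1 at an unadjusted p under 0.05, and 4 lay below 0 and 5 above it, the median change being 0.00. H1-10 was at 141 ± 16.4 and 103 ± 7.28 (SD, n = 3 each; log2 change 0.46 ± 0.18, SE), and H1-4 at 884 ± 105 and 1123 ± 89.6, a change of -0.35 ± 0.18. Of 24 histone chaperones, which hand histones to DNA, limma called 0, with 3 at an unadjusted p under 0.05, 13 negative and 11 positive changes and a median of -0.04. NASP, a carrier of histones H3 and H4 and of H1, was at 653 ± 134 and 967 ± 58.2, a log2 change of -0.58 ± 0.20. ANP32B, an acidic chaperone, was at 1138 ± 63.8 and 1784 ± 457, a change of -0.61 ± 0.22.

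Of 11 enzymes known to modify HMG proteins listed, 9 were in the fit. CSNK2A1 had no probe set of its own and RPS6KA5 was below the filter. Among the 9, limma called 0, with 1 at an unadjusted p under 0.05, 4 negative and 5 positive changes and a median of 0.07. PRMT6, an arginine methyltransferase of HMGA1, averaged 110 ± 20.7 and 152 ± 8.95 (SD, n = 3 each; log2 change -0.48 ± 0.20, SE). CDK1, which phosphorylates HMGA1 in mitosis, was at -0.48 ± 0.27. Of 11 receptors and partners of extracellular HMGB1, 7 were below the filter, among them TLR2, TLR4 and CXCR4. In the other 4 limma called 0, with 0 at an unadjusted p under 0.05 and a median of 0.04. AGER, the receptor RAGE, was at 88.3 ± 15.7 and 66.1 ± 11.2, a log2 change of 0.42 ± 0.21, and THBD, thrombomodulin, was at -0.21 ± 0.20.

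**Figure D4:**
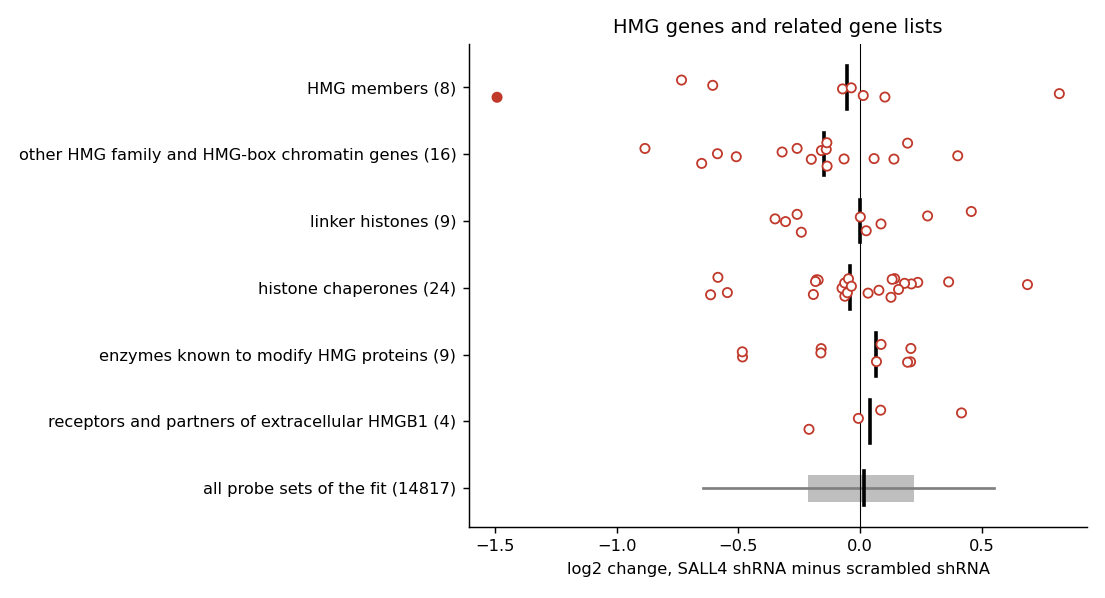
Log2 change (SALL4 shRNA minus scrambled shRNA) of each gene, by its brightest probe set, in the HMG family and 5 related lists, with the number of genes in the fit in brackets. Filled points passed the fit, black bars are medians, and the grey box and line span the quartiles (-0.21 to 0.22) and the 5th to 95th percentiles (-0.65 to 0.55) of all probe sets; only HMGN2 is filled.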

How the data were processed

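The deposited values are intensity values on a linear scale, and the submitters' processing notes name RMA. Its version, the return to a linear scale and the floor at 10 are not explained in the sources used here. Here log2 of each intensity was taken, to compare ratios. At the floor only a bound is known, and differences of dim probe sets can come out too small, which was not tested. Each HMG probe set lay above the floor on every array, the lowest value being 40.7 for HMGN5. Gene names come from the platform's annotation table: 19158 have 1 symbol, 1388 several and 11773 none. Of those with 1 symbol, 19128 were matched to a current symbol through the Entrez identifier, whether or not the symbol changed. All 6 columns were used.

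The knockdown arrays were compared with the scrambled ones by limma 3.58.1 under R 4.3.3 (moderated, two-sided, Benjamini-Hochberg, threshold 0.05) on the 14817 annotated probe sets with a mean log2 of at least 5 (an intensity of 32) over all 6 arrays. Unannotated probe sets were left out because they can be array controls. Standard errors and 95% intervals come from this fit, whose prior degrees of freedom were 6.53. The 16 alternatives changed the filter, the probe sets fitted, the variance model, the normalization, the replicate block or the arrays included. The number of arrays limits the precision.

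The members, the lists and the fit were chosen with earlier results of these data known. Named were each member and pseudogene probe set, SALL4, the 2 genes of each list with the lowest p where none passed, and the 3 closest profiles. Also named, and chosen after their values were seen, were DCN, the other fibroblast markers COL3A1, COL1A2, COL1A1 and LUM, and the 4 cholangiocyte markers. The 9 hepatocyte and fetal liver markers and the blood markers PTPRC and LYZ were named as well, by no rule set beforehand. Same-numbered replicates did not deviate together (correlations of 0.017, -0.089 and -0.046), so no block was used.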

Additional observations from a re-analysis of the deposited data

How the results depend on the processing

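The count of 174 annotated probe sets that passed was within 1.5 times under 5 of 16 alternatives. It was 0 with no filter on dim signal (limma, 3150 at an unadjusted p under 0.05, lowest adjusted p 0.0668), 7 with unannotated probe sets included and 450 with trend and robust settings. It was 0 to 53 without any 1 array and 6 without scrambled replicate 3 and SALL4 shRNA replicate 2 together. The count of HMG probe sets was 1, and was 0 with no filter, 2 with a mean log2 of at least 6, 2 with 1 probe set per gene, 4 with trend and robust settings, 0 to 1 without any 1 array and 0 without the pair of arrays together. The 4 were HMGN2 probe sets 1 and 2, HMGB2 and the probe set shared with HMGB1. The SALL4 change kept its sign under each alternative and lost the limma call with no filter (-1.30, adjusted p 0.0899), with unannotated probe sets (-1.30, 0.0544) and without the pair together (-1.20, 0.095), and ranged from -1.38 to -1.20 without any 1 array. With the replicate block, the numbers being shared labels only, 6 probe sets and 0 HMG probe sets passed and SALL4 was at -1.30 with an adjusted p of 0.0699. Of 232 member values under alternatives, 209 kept direction and side of the threshold, 5 lost a call (each HMGN2 probe set 1), 5 gained one and 13 turned sign. HMGN1 probe set 1 was at -0.0055 with quantile normalization. Without any 1 array HMGN1 probe set 1 ranged from -0.0933 to 0.1902, HMGN1 probe set 2 from -0.29 to 0.12, HMGN4 from -0.28 to 0.13 and HMGA1 probe set 1 from -0.11 to 0.0669. Without the pair together HMGN4 was at 0.0089 and HMGA1 probe set 3 at -0.11. The cause of these changes was not tested.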
